A study of Mus musculus with 6 samples.

Results

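Interferon regulatory factors (IRFs) were compared between macrophages given vesicles of different origin, using 8 genes taken by name from a count table of 57010 genes: Irf1, Irf2, Irf3, Irf4, Irf5, Irf7, Irf8 and Irf9. The cells were RAW 264.7, a mouse macrophage line, and every sample had been put into an inflammatory state with lipopolysaccharide (LPS), a bacterial cell wall component. Extracellular vesicles (EVs) from tendon stem cells were then added, from cells kept in normoxia for 3 samples (normoxic-EV) and from cells preconditioned in hypoxia for the other 3 (hypoxic-EV). The comparison asks how far the oxygen history of the vesicle donors is reflected in the transcripts of the recipient macrophages. The sources used here do not state the LPS dose, the exposure times or the species of the tendon stem cells, and cells without vesicles were not analysed here. Nothing in the labels says that samples of a group were separate cultures, so each p-value measures the spread between these libraries, which may be technical.

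IRFs are transcription factors that share an amino-terminal DNA-binding domain and recognise GAAA repeats in interferon-stimulated response elements. IRF3 and IRF7 are phosphorylated by the kinases TBK1 and IKK-epsilon and switch on type I interferon genes, whereas IRF5 acts below the adaptor MyD88 on inflammatory cytokine genes. IRF9 is the DNA-binding subunit of the complex it forms with STAT2, IRF1 is an interferon-inducible activator that IRF2 can oppose, and IRF8 and IRF4 act in myeloid and lymphoid cells with partners such as PU.1. The proteins and their phosphorylation were not measured here.

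Of the 8 IRF genes, 1 rose and 2 fell with hypoxic-EV, and 5 did not pass the test. Irf5 was 1.26-fold higher, Irf7 was 1.26-fold lower and Irf9 was 1.15-fold lower. Irf1, Irf2, Irf3, Irf4 and Irf8 were not called. A gene was called at an adjusted p under 0.05 in edgeR's quasi-likelihood test over the 13303 genes that passed a filter on low counts, and each of the 8 IRF genes passed that filter. By that rule 44.2% of all tested genes were called, 22.7% higher and 21.5% lower, so the 37.5% called among the IRF genes lies near the share of all genes. The median absolute log2 fold change was 0.127 over the IRF genes and 0.209 over all tested genes, and the signed medians were -0.03 and -0.0011. The groups did not overlap for 3 of the 8 genes (37.5%), against 52.8% of all tested genes. The authors' deposited table of changed genes lists 462 genes, each with an absolute log2 fold change of at least 1, and 0 of the 8 IRF genes are among them.

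**Figure D1:**
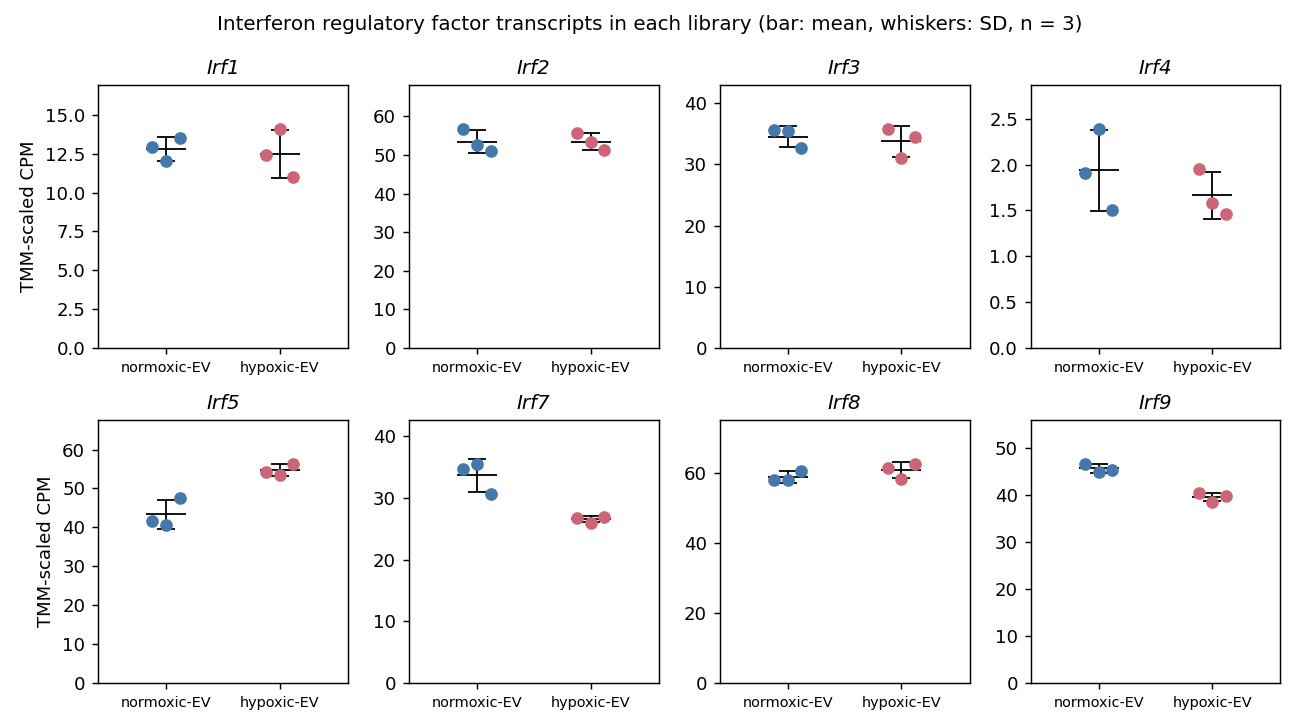
Each panel plots 1 IRF gene as TMM-scaled CPM (vertical axis from 0) in the 3 normoxic-EV and 3 hypoxic-EV libraries, with 1 point per library, a bar at the mean and whiskers of 1 SD. The points of the groups stand apart for Irf5, Irf7 and Irf9 and overlap for the other 5 genes.

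Stretches of 4 promoters are shown because they carry, or lack, the short motifs through which interferon and LPS signals are known to reach IRF genes. RefSeq promoter windows (GRCm38.p6, 250 bases before to 50 after a start site) were found for each of the 8 genes, 11 windows in all. They were searched on both strands for an interferon-stimulated response element core (ISRE, GAAANNGAA), a STAT site (GAS, TTCNNNGAA, which is its own reverse complement) and an NF-kB site core (GGNNTTTCC), in capitals below. The ISRE core was found in 8.56% of 32851 such windows, the GAS in 8.30% and the NF-kB core in 5.82%, and the letters of the ISRE and GAS can overlap. The stretches end at least 31 bases before the start site of the named gene. In the GENCODE annotation of that build, the first exons of 2 transcripts of the noncoding antisense gene Gm16675 reach into the stretch of Irf2, and the longer of them covers its ISRE match but not its GAS match. The other 3 stretches overlap no annotated exon.
Irf1 (chr11:53769884-53769983, + strand): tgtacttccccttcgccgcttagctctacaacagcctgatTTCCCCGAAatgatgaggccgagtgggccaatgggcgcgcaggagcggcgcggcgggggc
Irf2 (chr8:46739495-46739594, + strand): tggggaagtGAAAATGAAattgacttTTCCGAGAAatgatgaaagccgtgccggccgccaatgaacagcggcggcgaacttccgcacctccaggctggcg
Irf8 (chr8:120736158-120736257, + strand): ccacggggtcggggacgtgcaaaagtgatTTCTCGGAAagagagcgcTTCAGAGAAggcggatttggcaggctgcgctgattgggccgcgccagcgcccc
Irf7 (chr7:141266505-141266604, - strand): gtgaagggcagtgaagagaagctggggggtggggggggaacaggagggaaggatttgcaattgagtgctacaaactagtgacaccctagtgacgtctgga

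A GAS match was found for Irf1, Irf2 and Irf8, and Irf8 held 2 of them 18 bases apart from start to start. The ISRE core was found for Irf2 alone, and the NF-kB core for Irf2 (starting 16 bases before the start site) and Irf3. The windows of Irf4, Irf5, Irf7 and Irf9 held no match, which says only that these letters are not in these windows. Each motif was searched only as the pattern given. A site with other letters, also an NF-kB site in the windows of Irf1, would not have been counted. Irf1, Irf2, Irf3 and Irf8 held a match and were not called, and Irf4 held none and was not called either. The 3 called genes had no match. Whether matches and calls are related, among these genes or all tested genes, was not tested. A match is a description and not a shown binding site.

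The factors activated by pattern recognition receptors moved in different directions. Irf5 (ENSMUSG00000029771, chromosome 6, 29526624 to 29541870, GRCm39) encodes the factor that drives Il6 and Il12b below MyD88. In CPM (counts scaled by library size with TMM) it was measured at 41.7, 40.7 and 47.5 CPM in normoxic-EV replicates 1 to 3 and at 54.2, 53.4 and 56.4 CPM in hypoxic-EV replicates 1 to 3. Every hypoxic-EV library was above every normoxic-EV library, and normoxic-EV replicate 3 lay nearest to them. The mean (± SD, n = 3) rose from 43.3 ± 3.65 to 54.7 ± 1.54 CPM. The log2 fold change was 0.33 (SE 0.0646, 95% interval 0.20 to 0.47, edgeR adjusted p = 0.000256). Among tested genes 31.8% had a larger absolute log2 fold change. Irf5 overlaps Tnpo3, on the other strand, over 1045 bases. Tnpo3 had 222% of the count of Irf5 and its log2 fold change was -0.01 (edgeR adjusted p = 0.945). Whether the counting used strand is not stated, so reads in the shared bases cannot be assigned to 1 of these genes.

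Irf7 (ENSMUSG00000025498, chromosome 7, 140842619 to 140846394, GRCm39), the interferon-inducible factor that amplifies type I interferon production, was lower. Its level was 34.7, 35.6 and 30.7 CPM in the normoxic-EV libraries and 26.8, 26 and 26.9 CPM in the hypoxic-EV libraries. The hypoxic-EV values were close together and each lay below the lowest normoxic-EV value. The mean (± SD, n = 3) fell from 33.7 ± 2.59 to 26.6 ± 0.473 CPM. The log2 fold change was -0.34 (SE 0.0721, 95% interval -0.49 to -0.19, edgeR adjusted p = 0.000686). The annotated overlap of Irf7 with Phrf1, on the other strand, spans 45 bases, and the log2 fold change of Phrf1 was 0.01 (edgeR adjusted p = 0.854).

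Irf3, which encodes the constitutively present factor that responds first to TBK1, did not pass the test. It stood at 35.6, 35.4 and 32.6 CPM in normoxic-EV and 35.8, 31.0 and 34.4 CPM in hypoxic-EV, with the lowest and the highest value both in hypoxic-EV. The log2 fold change was -0.03 (95% interval -0.18 to 0.12, edgeR adjusted p = 0.751). The interval for Irf3 covers ratios of hypoxic-EV to normoxic-EV between 0.883 and 1.08. Bcl2l12, which shares 1065 bases with Irf3 on the other strand, had 6.46% of its count. Bcl2l12 had a log2 fold change of -0.457 and was not called (edgeR adjusted p = 0.0711). Within each library the ratio of the deposited FPKM (fragments scaled by gene length and library size) of Irf5 to that of Irf7 was 1.56, 1.49 and 2.01 in normoxic-EV and 2.63, 2.67 and 2.73 in hypoxic-EV. These ratios restate the opposite changes of both genes, with no overlap between the groups.

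Irf9 (ENSMUSG00000002325, chromosome 14, 55841028 to 55847487, GRCm39) encodes the DNA-binding partner of STAT2 in the type I interferon response. Its values were 46.7, 45 and 45.3 CPM in normoxic-EV and 40.4, 38.6 and 39.8 CPM in hypoxic-EV. The spread within a group was small and the groups did not overlap. The mean (± SD, n = 3) fell from 45.7 ± 0.917 to 39.6 ± 0.929 CPM. The log2 fold change was -0.21 (SE 0.0597, 95% interval -0.33 to -0.08, edgeR adjusted p = 0.00785). Among tested genes 50.5% had a larger absolute log2 fold change. Rnf31, which overlaps Irf9 by 123 bases on the same strand, stood at -0.03 in log2 fold change (edgeR adjusted p = 0.797).

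Of the antagonistic pair Irf1 and Irf2, neither was called. Irf1 was measured at 12.9, 12 and 13.5 CPM in normoxic-EV and 12.4, 14.1 and 11 CPM in hypoxic-EV, so the hypoxic-EV values spanned the normoxic-EV values on both sides. Its log2 fold change was -0.04 (95% interval -0.26 to 0.18, edgeR adjusted p = 0.801). Irf2 had 56.8, 52.6 and 51 CPM in normoxic-EV and 55.8, 53.3 and 51.3 CPM in hypoxic-EV, nearly the same 3 values in each group. Its log2 fold change was 0.00 (95% interval -0.12 to 0.13, edgeR adjusted p = 0.994), the smallest absolute change of the 8 genes. Ratios below 0.917 or above 1.09 lie outside the interval for Irf2, and ratios below 0.836 or above 1.13 outside that for Irf1.

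Irf8, which with PU.1 sets the macrophage gene programme, was not called. Its values were 57.9, 57.9 and 60.7 CPM in normoxic-EV and 61.4, 58.4 and 62.7 CPM in hypoxic-EV. The groups overlapped, and the log2 fold change was 0.05 (95% interval -0.07 to 0.16, edgeR adjusted p = 0.52). Irf4, which competes with IRF5 for MyD88, was the lowest, with 31 to 41 counts per library. Its level was 1.91, 2.39 and 1.51 CPM in normoxic-EV and 1.95, 1.58 and 1.46 CPM in hypoxic-EV (its log2 fold change was -0.22, 95% interval -0.71 to 0.28, edgeR adjusted p = 0.493). Counting error alone was 15.6% to 18.0% of an Irf4 value, against 2.62% to 6.97% for the other 7 genes. At this depth the interval for Irf4 still covers a fall as large as that of Irf7.

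**Figure D2:**
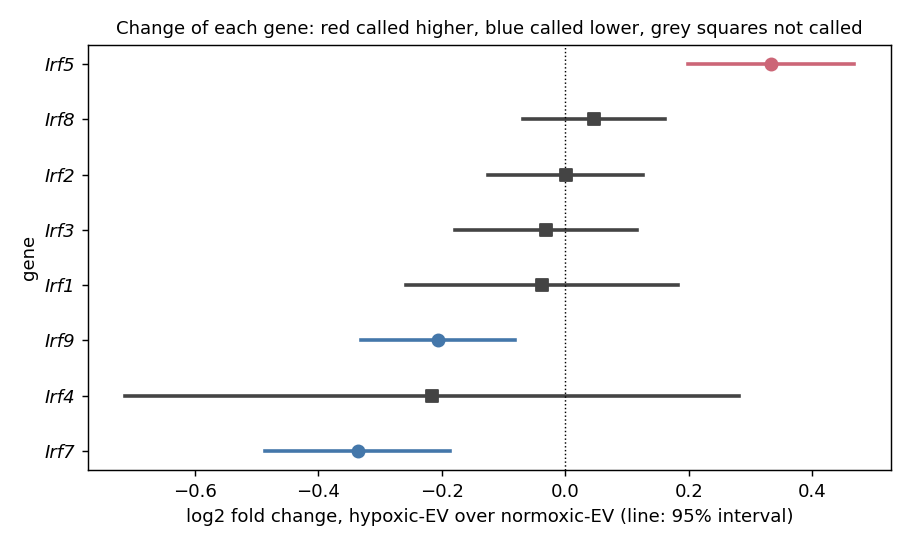
The horizontal axis is the log2 fold change of hypoxic-EV over normoxic-EV for each of the 8 IRF genes, with a point at the estimate and a line for its 95% interval. The intervals of Irf5, Irf7 and Irf9 lie to 1 side of 0, and that of Irf4, from -0.71 to 0.28, is the widest.

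Compared per gene length, by the deposited FPKM, Irf5 was the most abundant IRF transcript in every library. The lengths implied by the FPKM were 2905 bases for Irf5 and 7055 for Irf8, and how they were defined is not stated. Not scaled by length, Irf8 had the higher mean. It was 58.9 against 43.3 CPM in normoxic-EV and 60.8 against 54.7 CPM in hypoxic-EV. The order between genes and the shares of a sum thus depend on these lengths. The mean deposited FPKM in normoxic-EV was 14.9 ± 1.26 for Irf5, 8.90 ± 0.685 for Irf7, 8.47 ± 0.146 for Irf9, 8.33 ± 0.238 for Irf8, 7.22 ± 0.384 for Irf2, 3.21 ± 0.178 for Irf1 and 0.395 ± 0.0906 for Irf4 (SD, n = 3). Irf3 came between Irf5 and Irf7, at 10.3, 10.3 and 9.47 FPKM. The values of Irf7, Irf9 and Irf8 overlapped between libraries, so the order among them was not resolved. In hypoxic-EV the FPKM of Irf5 was 18.8 ± 0.512, followed by 9.79 ± 0.789 for Irf3 and 8.61 ± 0.345 for Irf8. Irf9, Irf2 and Irf7 came next at 7.34 ± 0.241, 7.22 ± 0.375 and 7.03 ± 0.177 FPKM, values that overlapped between libraries, and Irf1 and Irf4 stood at 3.14 ± 0.39 and 0.339 ± 0.0554 FPKM. Among all tested genes the mean FPKM of Irf5 lay at the 76.0th percentile, that of Irf3 at the 63.1st and that of Irf4 at the 7.59th.

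The summed FPKM of the 8 genes was 61.8, 61.0 and 61.5 in normoxic-EV and 64.2, 60.4 and 62.3 in hypoxic-EV, and the groups overlapped. Irf5 took 24.2 ± 2.01% of that sum with normoxic-EV and 30.2 ± 0.733% with hypoxic-EV (± SD of n = 3). The share of Irf7 was 14.5 ± 1.16% and 11.3 ± 0.0684%, and that of Irf9 was 13.8 ± 0.168% and 11.8 ± 0.0399%. The share of Irf8 was 13.6 ± 0.389% and 13.8 ± 0.293%. A share moves with every other member of the sum, so these values describe the make-up of the family and were not tested.

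**Figure D3:**
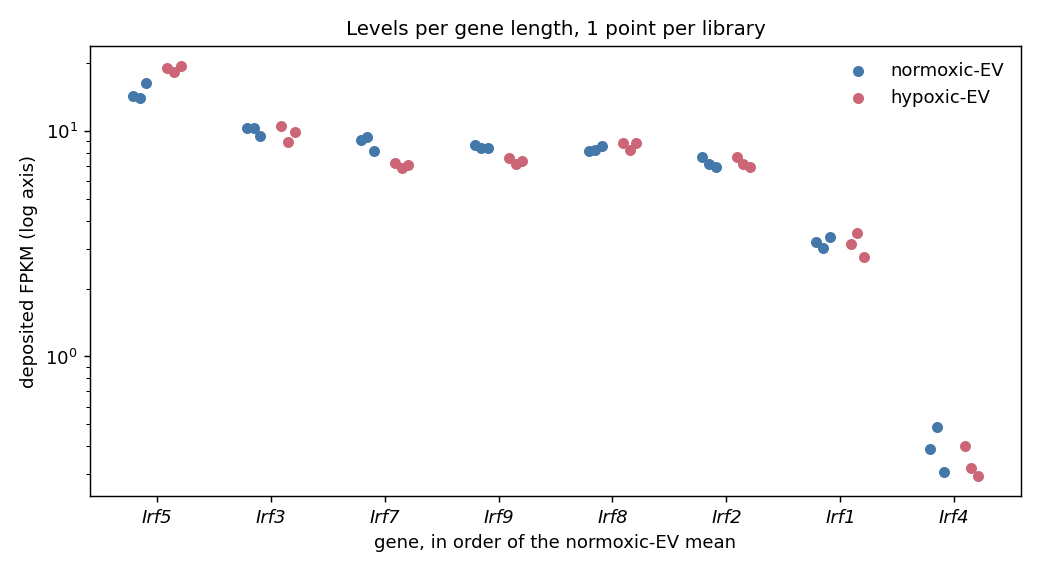
The vertical axis, on a log scale, is the deposited FPKM of each IRF gene, with 1 point per library and the genes ordered by their normoxic-EV mean. Irf5 is highest in all 6 libraries, from 14.0 to 19.3 FPKM, and Irf4 lowest, from 0.296 to 0.489 FPKM.

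Genes whose levels followed those of Irf5 and Irf7 most closely were ranked by Pearson's r of log2 CPM over the 6 libraries, among 9461 protein-coding genes with a mean of at least 5 CPM. For Irf5 these were L3mbtl2 (r = 0.9956), Ttc27 (r = 0.9954) and Ppp2r5d (r = 0.9935), with log2 fold changes of 0.25, 0.21 and 0.27. For Irf7 they were Elk1 (r = 0.9982), Pld3 (r = 0.9925) and Sra1 (r = 0.9917). Pld3 and Sra1 had log2 fold changes of -0.36 and -0.29, whereas Elk1 had -0.10 and was not called (edgeR adjusted p = 0.157). These coefficients describe 6 points that fall into 2 groups and were not tested.

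The library totals ran from 16751665 to 23422328 counts. Of 10 macrophage markers, each had counts, but Mertk had only 11 over all libraries and did not pass the filter. The summed level of the 10 markers was 10500 to 10900 CPM in normoxic-EV and 8490 to 8890 CPM in hypoxic-EV. Most of it came from Lyz2 (7950 ± 208 and 6090 ± 176 CPM, ± SD of n = 3). The 9 markers tested did not move together. Lyz2, Adgre1, Spi1, Ptprc, Fcgr1 and Cd14 fell, Csf1r rose from 174 ± 6.93 to 352 ± 13.4 CPM (edgeR adjusted p = 6.93e-13), Itgam rose by 0.16 on the log2 scale, and Cd68 was not called. Tendon and stromal markers summed to 1.08 to 2.34 CPM in normoxic-EV and 0.947 to 1.59 CPM in hypoxic-EV, and 6 of 12, Col1a2, Col3a1, Tnmd, Thbs4, Fmod and Thy1, were at 0 counts in all libraries. Of 7 neutrophil markers 5 had a count, with summed levels of 237 to 270 CPM in normoxic-EV and 96.1 to 120 CPM in hypoxic-EV. Nearly all of that was S100a8 (249 ± 17.7 and 110 ± 12.4 CPM, SD, n = 3), and Elane and Ltf were at 0. Markers of B cells (4 of 5 with a count) summed to 0.311 to 0.642 CPM in normoxic-EV and 0.868 to 1.03 CPM in hypoxic-EV. Those of T or NK cells (3 of 6, with Cd3e, Cd8a and Nkg7 at 0) summed to 0.175 to 0.311 and 0.059 to 0.344 CPM, and those of dendritic cells (6 of 6) to 2.51 to 3.35 and 2.76 to 3.60 CPM. The part of these levels in the IRF values was not tested. In bulk RNA, fewer cells of a type and less RNA per cell cannot be told apart.

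Upstream of the IRFs, 25 genes of sensing and of the kinases that activate IRF3, IRF5 and IRF7 were tested, and 4 rose and 11 fell (median log2 fold change -0.09). That is 60.0% called, 16.0% higher and 44.0% lower, against 44.2%, 22.7% and 21.5% of all tested genes. The endosomal RNA receptor gene Tlr7 rose from 50.2 ± 0.959 to 104 ± 3.72 CPM (± SD of n = 3, a log2 fold of 1.05, edgeR adjusted p = 1.45e-12). Ticam2, encoding the adaptor TRAM that links TLR4 to IRF3, fell from 52.9 ± 4.41 to 33.6 ± 1.40 CPM (log2 fold change -0.65). Slc15a4, which encodes the lysosomal transporter that recruits IRF5 through the adaptor TASL, fell from 42.8 ± 0.996 to 29.2 ± 1.79 CPM (log2 fold change -0.55). Tasl itself, named after its values were seen, stood at -0.41 in log2 fold change (edgeR adjusted p = 6.54e-05), so both genes moved opposite to Irf5. The IRF3 and IRF7 kinase genes Tbk1 and Ikbke had log2 fold changes of -0.14 (edgeR adjusted p = 0.0342) and -0.39 (edgeR adjusted p = 1.86e-05). The count of higher genes was 1 without normoxic-EV replicate 2 and 2 without normoxic-EV replicate 3, and that of lower genes was 7 without normoxic-EV replicate 1.

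The interferons themselves were at or near 0. Of 8 listed interferon ligand genes, 7 had 0 counts in every library, which leaves room for at most 0.179 CPM in each. Ifnb1, a target of IRF3 and IRF7, was counted 1, 2 and 2 times with normoxic-EV and 0 times in each hypoxic-EV library, too few for a comparison. None of the 5 tested receptor genes was called by edgeR, against 44.2% of all tested genes. Of these receptor genes, 0 had an unadjusted edgeR p under 0.05 and 0 were called by DESeq2. Ifnar1 stood at 77.4 ± 1.47 and 78.4 ± 3.43 CPM (± SD of n = 3, a log2 fold of 0.02, 95% interval -0.09 to 0.13) and the log2 fold change of Ifnar2 was -0.13 (edgeR adjusted p = 0.137). Of 6 JAK and STAT genes, 2 fell, Jak2 by 0.74 and Stat3 by 0.19 on the log2 scale. That is 33.3% called, each lower, against 44.2% of all tested genes called and 21.5% lower. Stat2, which encodes a partner of IRF9, was at -0.14 in log2 fold change (edgeR adjusted p = 0.127), so it did not pass the test that Irf9 passed.

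Among 7 tested DNA-binding partners of IRF4 and IRF8, 1 rose and 2 fell (median 0.08), and the 42.9% called lies near the 44.2% of all tested genes. Batf, encoding an AP-1 factor that pairs with IRF4 or IRF8 and JUN proteins, fell from 5.63 ± 0.0831 to 2.46 ± 0.0475 CPM (± SD of n = 3, a log2 fold of -1.19, edgeR adjusted p = 1.89e-06). Spi1, the PU.1 gene, fell from 194 ± 6.25 to 158 ± 9.0 CPM (log2 fold change -0.29, edgeR adjusted p = 7.22e-05), and Jun rose by 0.19 on the log2 scale. The count of higher partners was 0 without normoxic-EV replicate 2 or hypoxic-EV replicate 1, 3 without hypoxic-EV replicate 2, and 2 with the replicate number as a block. Of 12 tested genes that restrain IRFs or interferon signalling, 2 rose and 4 fell (median 0.00). That is 50% called, 16.7% higher and 33.3% lower, against 44.2%, 22.7% and 21.5% of all tested genes. Irf2bp2, encoding a corepressor that binds IRF2, rose from 31.7 ± 1.22 to 55.7 ± 4.60 CPM (log2 fold change 0.81, edgeR adjusted p = 4.44e-09), beside the level of Irf2 that was not called. The feedback inhibitor gene Socs3 and the NF-kB inhibitor gene Tnfaip3 had log2 fold changes of -0.51 and -0.45. Without hypoxic-EV replicate 2 the number of higher genes in that list was 4.

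Downstream, genes that type I interferon induces moved both ways, with 4 of 28 tested higher and 11 lower (median -0.15). That is 53.6% called, 14.3% higher and 39.3% lower, against 44.2%, 22.7% and 21.5% of all tested genes. Ifi27 fell from 316 ± 15.3 to 211 ± 4.72 CPM (± SD of n = 3, a log2 fold of -0.58), Samd9l from 142 ± 10.2 to 97.9 ± 3.74 CPM (-0.54), and Isg15, a ubiquitin-like modifier gene, from 13.2 ± 1.06 to 6.93 ± 0.296 CPM (-0.92, edgeR adjusted p = 6.73e-07). The count of lower genes was 7 without normoxic-EV replicate 1, and that of higher genes was 2 without normoxic-EV replicate 2 or 3. Of 20 tested targets of IRF1 and IRF8 known from the interferon gamma response, 1 rose and 8 fell (median -0.14). The 45% called lies near the 44.2% of all tested genes, with 40.0% lower against 21.5%. Cd274, the checkpoint ligand gene, Gbp2, a guanylate-binding protein gene, and the peptide transporter gene Tap1, which overlaps Psmb9, had log2 fold changes of -1.10, -1.47 and -0.41. The gene that rose, Psmb10 (log2 fold change 0.23), was named after its values were seen, and the count of higher genes was 0 without normoxic-EV replicate 2 or 3 or hypoxic-EV replicate 1 or 3, and 2 without hypoxic-EV replicate 2. Each of the 5 tested cytokine genes known as targets of IRF1, IRF5 or IRF8 fell (median -2.53), against 21.5% of all tested genes. Il6, Il23a and Il12b led them, with log2 fold changes of -3.59, -2.53 and -3.35, so that these genes fell while Irf5 rose by 0.33. The upstream and downstream lists were chosen with earlier results of these data known, so their shares are descriptions. None of these lists was tested as a set.

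**Figure D4:**
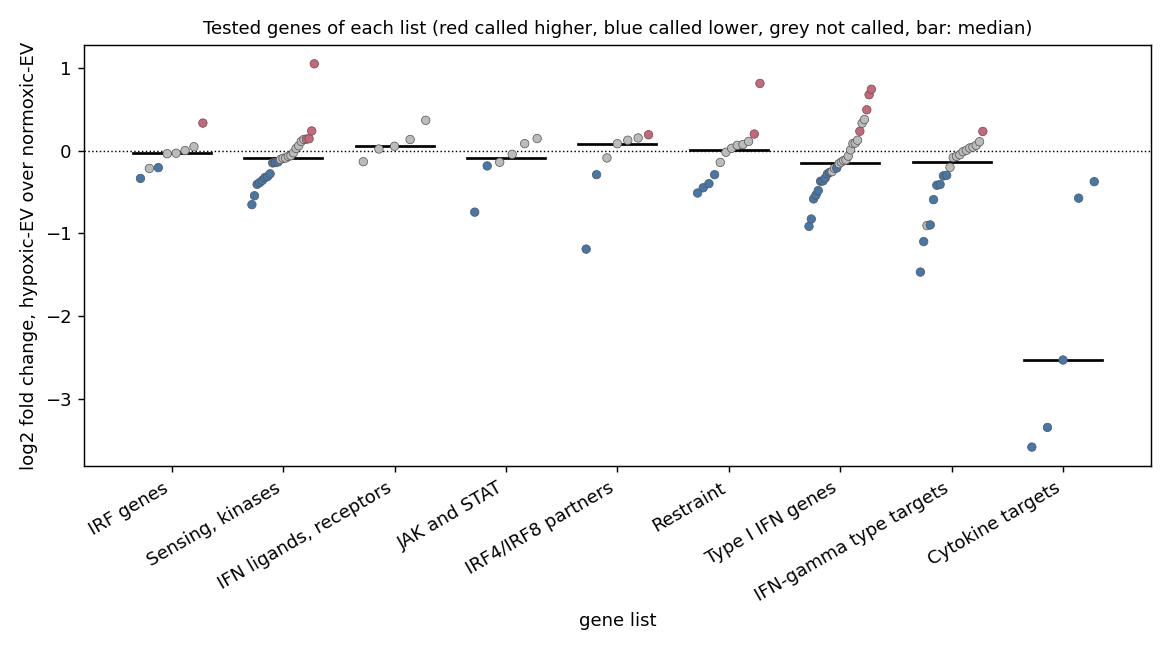
Each point is 1 tested gene, plotted by its log2 fold change of hypoxic-EV over normoxic-EV (vertical axis), in the IRF genes and 8 lists of genes around them (horizontal axis), with a bar at the median of each list. The IRF genes lie between -0.34 and 0.33, and the cytokine targets reach -3.59.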

How the data were processed

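Poly(A) RNA of 6 samples was sequenced in pairs on an Illumina HiSeq, per the labels' protocols. HISAT2, featureCounts, DESeq2 and the build GRCm39 are listed in the submitters' processing notes; the sources used here state no versions, annotation, strand setting or handling of multi-mapping reads. Per gene, the authors deposited whole-number counts, FPKM values, a signal of counts divided by 1 size factor per library (not used further here), and a comparison table with log2 fold changes and p-values. Groups came from the treatment in the labels.

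The test was that of edgeR 4.0.16 (R 4.3.3) on the counts (filterByExpr with a minimum count of 10 and a minimum total of 15, TMM, quasi-likelihood F-test, two-sided, Benjamini-Hochberg over 13303 genes), checked on simulated counts. The SE is the absolute log2 fold change divided by the square root of F, and the 95% interval uses the t quantile of the fit. A count of 0 allows 3 counts; limits and counting errors cover counting only. FPKM served for levels between genes. Gene names were matched by symbol, which found every listed gene. Named were the 8 members, up to 3 called genes of lowest adjusted p per list, Stat2, Tbk1, Ikbke, Spi1, Ifnb1, Ifnar1 and Ifnar2 as partners or kinases (another gene under that rule is not reported here), and the 3 genes most like the strongest called member in each direction. The members and lists were chosen with earlier results of these data known. Promoter sequences are RefSeq's, on GRCm38.p6, and their coordinates are not those of the counts. Alternatives were RLE and upper-quartile scaling, no count filter, DESeq2 1.42.0, limma 3.58.1 voom, the replicate number as a block, and leaving out each library.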

Additional observations from a re-analysis of the deposited data

How the results depend on the processing

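Under each of the 12 alternatives Irf5 was called higher and Irf7 and Irf9 lower, and the other 5 IRF genes were not called. Leaving out each library in turn, the log2 fold change ran from 0.29 to 0.41 for Irf5, from -0.40 to -0.30 for Irf7 and from -0.22 to -0.18 for Irf9, whose edgeR adjusted p reached 0.041 without normoxic-EV replicate 1. Signs of values near 0 turned: Irf2 had -0.0034 with RLE scaling, and without each library in turn Irf1 ran from -0.1354 to 0.0563, Irf2 from -0.0308 to 0.0506 and Irf3 from -0.0723 to 0.0271. The number of all genes called was 5877, and 4889 with DESeq2. DESeq2 called 2 genes higher in the sensing list, 2 among type I interferon genes and 0 among interferon gamma type targets, and without the count filter 2 partners of IRF4 and IRF8 were higher. With the replicate number as a block, log2 fold changes were 0.34 for Irf5, -0.33 for Irf7 and -0.21 for Irf9; libraries with the same number did not deviate together (correlations -0.0177 to -0.0156), and no IRF gene's call changed. Of 192 counts of list genes under alternatives, 172 were equal to the main count or within 1.5 times of it, and 20 moved further. The 172 include counts that were 0 in the main setting and stayed at 0. Depth limits Irf4 most, at 31 to 41 counts per library.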

Other observations

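Within the type I interferon genes, 4 genes, named here after their values were seen, rose while Isg15 and others of the list fell. Cmpk2, a nucleotide kinase gene, went from 4.61 ± 0.535 to 7.34 ± 0.94 CPM with hypoxic-EV (± SD of n = 3, a log2 fold of 0.68, edgeR adjusted p = 0.000573). Ifit2, which encodes an RNA-binding antiviral protein, went from 18.2 ± 0.139 to 25.6 ± 3.23 CPM (log2 fold change 0.49, edgeR adjusted p = 9.2e-05). Ifit3, which has a close copy in Ifit3b, and Rsad2, the viperin gene, had log2 fold changes of 0.74 (edgeR adjusted p = 0.013) and 0.23 (edgeR adjusted p = 0.0316), and DESeq2 called neither. Genes of this list are known to be induced by type I interferon through the complex that holds IRF9. The log2 fold change of Irf9 was -0.21, and its part in these changes was not tested.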
